A study of Mus musculus with 6 samples.

Results

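The 10 genes examined belong to the bone morphogenetic protein (BMP) pathway and were read in day 4 embryoid bodies (EBs), the floating aggregates in which mouse embryonic stem cells (mESCs) pass through a gastrulation-like stage. The members were the rows of the count table whose symbols are Bmp4, Bmp2, Bmp7, Chrd, Bambi, Smad6, Id1, Id2, Id3 or Msx2, and all 10 were found among the 23353 genes listed. The comparison was between 3 libraries from the parental W9.5 mESCs (wildtype) and 3 from EVX1-Δfs clone 14, a line derived from W9.5 in which CRISPR-Cas9 left small frameshift deletions in both alleles of Evx1, within the exon that encodes its homeodomain. Both lines were grown for 4 days in serum-containing medium without LIF. The mutant group is 1 clone, so in these libraries a genotype difference cannot be told apart from a difference between this clone and its parent. By qPCR of patterning markers the study found no significant differences between this clone and another frameshift clone. Its RNA-seq found few genes that differed between EVX1-Δfs and a line with a larger deletion at the Evx1 locus. The replicates were differentiations started on separate days, with both genotypes started together.

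BMPs are secreted ligands of the TGF-β family. They bind paired type I and type II serine/threonine kinase receptors, which phosphorylate SMAD1, SMAD5 and SMAD9, and these enter the nucleus with SMAD4 and switch on genes such as Id1, Id2, Id3, Msx2 and Smad6. In the gastrulating mouse embryo BMP4 from extraembryonic tissue and posterior mesoderm is needed for mesoderm and for posterior and ventral fates, while Chordin and other secreted antagonists from the anterior side bind BMPs outside the cell. The study asked what EVX1 does in posterior patterning, and the comparison shows which genes of this pathway differed when its reading frame was broken.

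The 250 bases before the RefSeq start (build GRCm38.p6, which is not the build used for the counts) are printed for Bmp4, Smad6, Chrd and Id2. Bmp4 and Smad6 were lower in the mutant, as was Bambi, which is not printed. Chrd and Id2 had the highest fold changes of the members but were not called. Capitals mark GGCGCC, a GC-rich element of the kind bound by BMP-activated SMADs, and GTCT or its complement AGAC, the core of the SMAD binding element.
Bmp4, chr14:46390670-46390919, minus strand: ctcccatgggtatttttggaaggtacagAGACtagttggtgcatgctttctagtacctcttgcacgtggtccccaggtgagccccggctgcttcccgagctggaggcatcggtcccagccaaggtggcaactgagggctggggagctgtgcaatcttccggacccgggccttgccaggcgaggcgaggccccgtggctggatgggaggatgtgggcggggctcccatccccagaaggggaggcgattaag
Smad6, chr9:64022060-64022309, minus strand: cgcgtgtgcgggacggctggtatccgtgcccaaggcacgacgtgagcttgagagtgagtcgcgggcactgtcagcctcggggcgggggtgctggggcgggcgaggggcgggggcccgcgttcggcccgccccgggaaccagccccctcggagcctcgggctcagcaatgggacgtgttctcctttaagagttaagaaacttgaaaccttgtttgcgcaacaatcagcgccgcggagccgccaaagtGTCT
Chrd, chr16:20732877-20733126, plus strand: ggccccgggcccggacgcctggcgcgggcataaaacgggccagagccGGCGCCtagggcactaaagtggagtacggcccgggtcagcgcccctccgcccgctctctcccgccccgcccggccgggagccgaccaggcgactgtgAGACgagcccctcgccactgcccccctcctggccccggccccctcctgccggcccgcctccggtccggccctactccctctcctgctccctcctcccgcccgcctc
Id2, chr12:25096093-25096342, minus strand: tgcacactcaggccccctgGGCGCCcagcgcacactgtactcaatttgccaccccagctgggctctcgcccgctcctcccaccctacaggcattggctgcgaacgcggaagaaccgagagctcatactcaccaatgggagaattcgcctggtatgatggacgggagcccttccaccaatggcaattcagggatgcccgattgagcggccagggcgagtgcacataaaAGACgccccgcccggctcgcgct

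Promoters of 6 members were searched on both strands (the 4 printed, Id3 and Msx2), and those of Bmp2, Bmp7, Bambi and Id1 are not printed. GGCGCC, which reads the same on both strands, occurred once in Chrd and once in Id2, starting 203 and 231 bases before the start, and did not occur in Bmp4, Smad6, Id3 or Msx2. Of 32851 promoters of the same length, 9.59% held it. Those promoters had a median GC content of 52.4%, while the 6 searched had 61.6% (Msx2) to 78% (Chrd). The share was not matched for GC content. GTCT or AGAC was present in all 6, as in 82.9% of all promoters of that length. These matches are letters in a window, not sites of binding.

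The libraries held between 7597879 and 9914471 reads assigned to genes. Evx1, the edited gene, had 2176 to 2400 normalized counts (reads divided by a library size factor) in wildtype and 2012 to 2516 in EVX1-Δfs, which is no check of the edit, since a frameshift need not change the read count. The streak markers T and Eomes averaged 4643 and 3213 normalized counts in wildtype, so defining transcripts of the primitive streak were present. Of 13136 genes that passed the filter on low values (at least 10 normalized counts in at least 3 libraries), limma called 660 (5.02%) at an adjusted p under 0.05, of which 387 (2.95%) were lower and 273 (2.08%) higher in EVX1-Δfs. With upper-quartile scaling 325 were lower and 370 (53.2% of calls, against 41.4%) higher.

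All 10 members passed that filter. Bmp4, Bambi and Smad6 were lower in EVX1-Δfs EBs, and the other 7 members were not called in either direction. The count of 3 of 10 stands beside 2.95% of all genes tested, but the members were chosen with earlier results of these libraries known, and the study itself named Bmp4 from them, so the count is a description. With the replicate number as a block, 2 members were lower (Bmp4 and Smad6), beside 1.69% of all genes called, 1.11% lower and 0.579% higher. With the trends of each library with GC content and length removed, 2 were lower (Bambi and Smad6), beside 1.98% of all genes called, 1.15% lower and 0.827% higher. The median log2 fold change of the members was -0.31, against 0.00 for all genes tested. The normalized counts of the genotypes did not overlap for 6 members, lower in 4 and higher in 2. Of these, Bmp2 was barely apart, with 404 in replicate 3 of both genotypes. Among all genes tested 26.9% did not overlap, 14.7% lower and 12.2% higher.

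**Figure D1:**
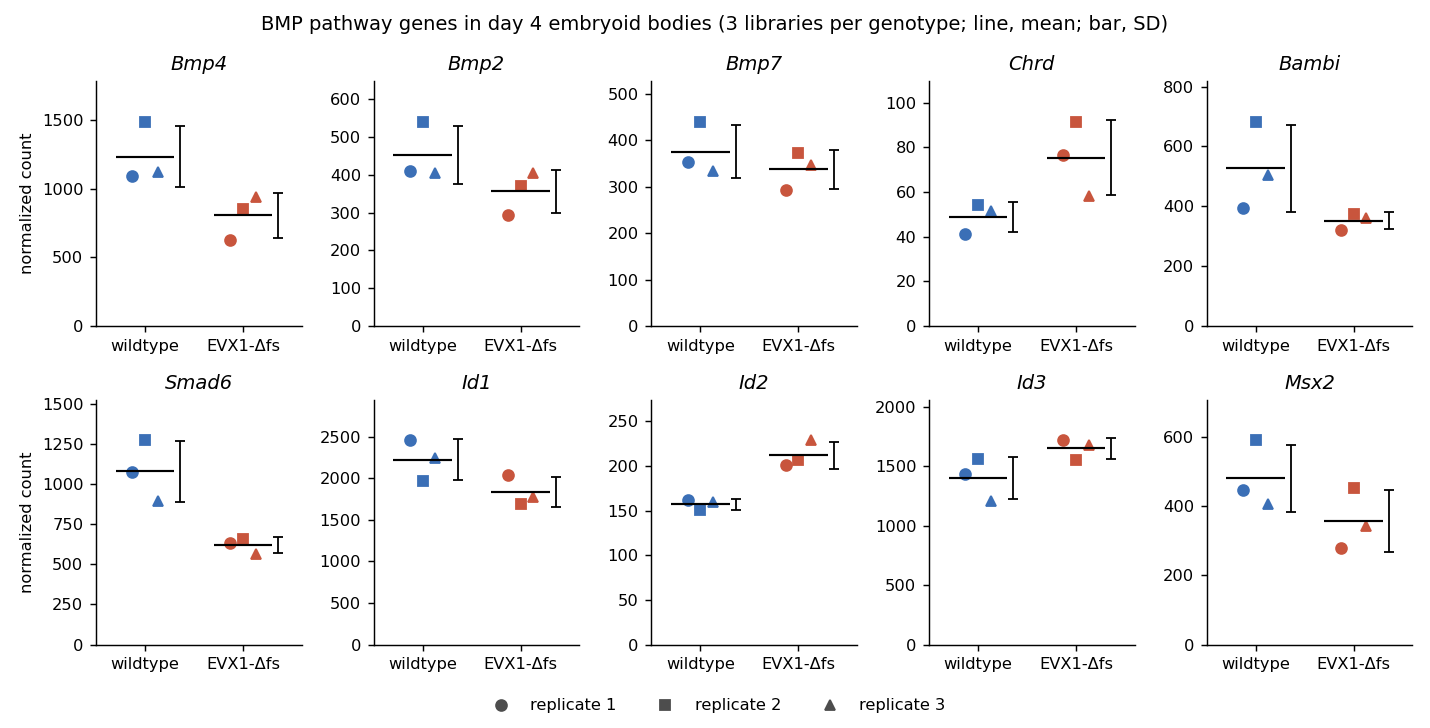
Normalized counts of the 10 BMP genes in each library (y axis, from 0) for wildtype (blue) and EVX1-Δfs (red). Symbols give the replicate number, horizontal lines the mean and bars the SD (n = 3). The groups stay apart for Bmp4, Bmp2, Bambi and Smad6 (lower in EVX1-Δfs) and for Chrd and Id2 (higher), and they overlap for Bmp7, Id1, Id3 and Msx2. For Bmp2 they are barely apart, with 404 in replicate 3 of both genotypes.

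Among the ligands, Bmp4 (chromosome 14, 47003195 to 47010344, minus strand, NCBIM37, the assembly of mm9) had 1094, 1489 and 1126 normalized counts in replicates 1, 2 and 3 of wildtype, and 626, 855 and 943 in the same replicates of EVX1-Δfs. The lowest wildtype library thus stood above the highest mutant one, and wildtype replicate 2 stood well above the other wildtype libraries. The mean fell from 1236 ± 219 to 808 ± 163 (SD, n = 3), and the log2 fold change was -0.62 ± 0.14 (SE, limma adjusted p = 0.0163). The call was lost without EVX1-Δfs replicate 1 (log2 fold change of -0.45, limma adjusted p = 0.106) or wildtype replicate 2 (-0.48, limma adjusted p = 0.0623). It was also lost when the trends of each library with GC content and length were removed (-0.51, limma adjusted p = 0.0729). Fold changes fell with GC content across 12942 genes (Spearman's rho of -0.46, genes not being independent), and the exons of Bmp4 hold 52.8% GC. Gm15217 shares 89 exon bases with Bmp4 on the opposite strand and had 0 reads in all 6 libraries.

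Bmp2, a close relative of Bmp4 that signals through the same receptors, is on chromosome 2 (133377895 to 133388621). It had 410, 540 and 404 normalized counts in wildtype replicates 1 to 3 and 293, 371 and 404 in EVX1-Δfs replicates 1 to 3. The groups were barely separated, since wildtype replicate 3 and EVX1-Δfs replicate 3 both had 404. Its log2 fold change was -0.34 (95% confidence interval from -0.64 to -0.04, limma adjusted p = 0.162), so Bmp2 was not called. Bmp7 (chromosome 2, 172693513 to 172765822), which can pair with BMP2 or BMP4 in heterodimers, had 354, 440 and 333 normalized counts in wildtype and 292, 373 and 347 in EVX1-Δfs libraries, with overlap between the groups. The interval of its log2 fold change ran from -0.44 to 0.14 (limma adjusted p = 0.549).

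Taken per kb of exon, Bmp4 made up 70.7% to 72.0% of the summed level of these 3 ligands in the wildtype libraries and 64.5% to 68.0% in the mutant ones. The sum itself was 776 ± 134 normalized counts per kb in wildtype and 548 ± 98.2 in EVX1-Δfs (SD, n = 3). Both sums were chosen after the values were seen and were not tested. Bmp4 was the most abundant ligand of the 3 in every library of either genotype.

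The antagonists among the members act at separate points. Chordin, encoded by Chrd (chromosome 16, 20733200 to 20742457), binds BMPs outside the cell, BAMBI is a membrane pseudoreceptor without a kinase domain, and SMAD6 is an inhibitory SMAD inside the cell whose transcription BMP signals induce. Of these 3, Bambi and Smad6 were lower in the mutant and Chrd, which was not called, had the highest fold change of the 10.

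Smad6 (chromosome 9, 63800953 to 63869866, minus strand) had 1075, 1272 and 892 normalized counts in replicates 1, 2 and 3 of wildtype, and 633, 657 and 563 in the same replicates of EVX1-Δfs. All mutant libraries were within a narrow band, and that band was clearly under the lowest wildtype library. Its mean fell from 1079.6 ± 189.9 to 618 ± 49.0 (SD, n = 3), and the log2 fold change was -0.79 ± 0.13 (SE, limma adjusted p = 0.00109). Smad6 kept its call in all 6 fits that left out 1 library and in all 16 other alternatives, with log2 fold changes from -0.92 to -0.59. The value nearest to 0 came with GC and length trends removed (limma adjusted p = 0.0152), and its exons had the highest GC content of the 10 members (60.9%).

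Bambi (chromosome 18, 3507955 to 3516402) had 395, 682 and 504 normalized counts in wildtype replicates 1, 2 and 3, against 319, 376 and 361 in the same replicates of EVX1-Δfs. The wildtype libraries were spread widely and the mutant libraries were close together. The means were 527 ± 145 and 352 ± 29.2 (SD, n = 3), and the log2 fold change was -0.55 ± 0.16 (SE, limma adjusted p = 0.0436). This call was near the threshold. It was lost with the replicate block (limma adjusted p = 0.0578) and in 5 of the 6 fits that left out 1 library, with the largest adjusted p without wildtype replicate 2 (-0.34, limma adjusted p = 0.189). It was also lost when replicate 3 of wildtype, or 1, 2 or 3 of EVX1-Δfs, was left out (limma adjusted p = 0.0739, 0.148, 0.0686 and 0.0908). With GC and length trends removed the log2 fold change was -0.69 (limma adjusted p = 0.0152).

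Chrd had 41.1, 54.0 and 51.5 normalized counts in replicates 1, 2 and 3 of wildtype, and 76.6, 91.3 and 58.1 in the same replicates of EVX1-Δfs. Every mutant library was above every wildtype one, with EVX1-Δfs replicate 3 close to the wildtype range. The log2 fold change was 0.60 (95% confidence interval from 0.13 to 1.07), and limma gave an adjusted p of 0.116. Chrd was read from 43 to 82 reads per library, the fewest of the 10 members, and its exons share 154 bases with Thpo on the opposite strand, which had 13.7 to 22.9 normalized counts. The strand setting of the counting is stated only as part of standard settings, so the gene of origin of reads in the shared stretch is uncertain.

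**Figure D2:**
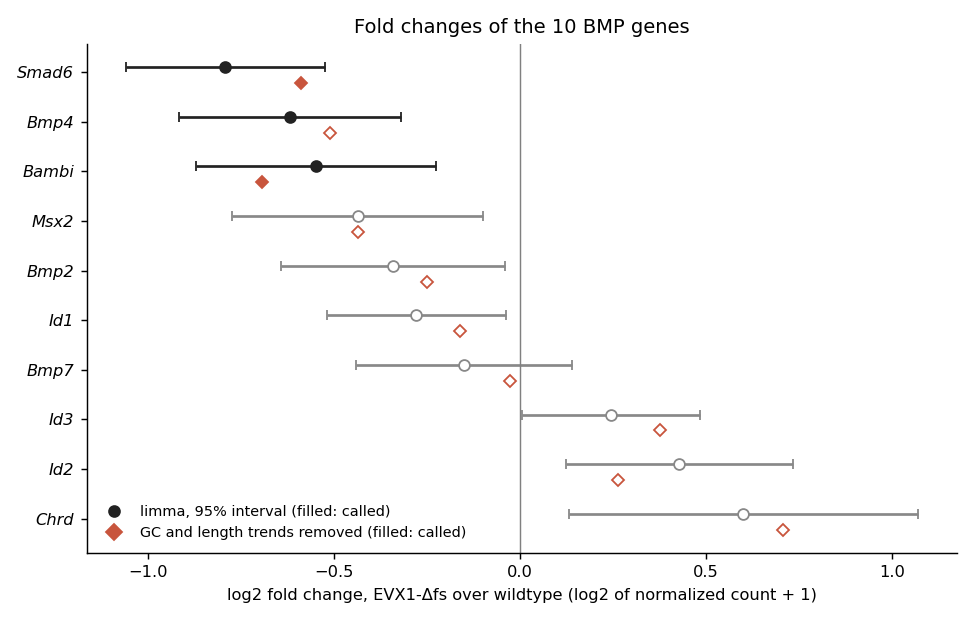
Log2 fold changes of the 10 genes (x axis, EVX1-Δfs over wildtype) with 95% confidence intervals from limma (circles and bars), and the values after removal of each library's GC and length trends (diamonds). Filled symbols passed an adjusted p under 0.05. Smad6 and Bambi are filled in both, Bmp4 only without that removal (adjusted p of 0.0163 and 0.0729), and Chrd lies farthest to the right.

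The fold changes of the target genes differed in sign, and 0 of the 4 were called. ID proteins are helix-loop-helix factors without a DNA-binding region that sequester bHLH transcription factors, and Id1, Id2 and Id3 are standard readouts of BMP signalling. In limma 4 of 4 had an unadjusted p under 0.05, as had 23.1% of all genes tested. DESeq2 and edgeR also called none of them at an adjusted p under 0.05, except that Msx2 passed in edgeR without the filter on low values (-0.43, adjusted p = 0.0292).

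Id1 (chromosome 2, 152561987 to 152563146) had 2455, 1972 and 2245 normalized counts in wildtype replicates 1 to 3, and 2033, 1691 and 1769 in EVX1-Δfs replicates 1 to 3. It was lower in each same-numbered pair, but the groups overlapped. The log2 fold change was -0.28 (95% confidence interval from -0.52 to -0.04, limma adjusted p = 0.153). Id2 (chromosome 12, 25778666 to 25780957, minus strand) had 162, 150.4 and 159 normalized counts in wildtype and 201, 206 and 229 in EVX1-Δfs libraries, so the mutant libraries were all above the wildtype ones. Its log2 fold change was 0.43 (95% confidence interval from 0.12 to 0.73, limma adjusted p = 0.0862), and 0.26 with GC and length trends removed (limma adjusted p = 0.353), where its exons had the lowest GC content of the members (42.4%).

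Id3 (chromosome 4, 135699412 to 135701670) had 1433, 1558 and 1208 normalized counts in wildtype replicates 1 to 3, and 1718, 1554 and 1682 in EVX1-Δfs replicates 1 to 3, with wildtype replicate 2 inside the mutant range. The log2 fold change was 0.24 (95% confidence interval from 0.01 to 0.48, limma adjusted p = 0.206). Summed over Id1, Id2 and Id3, the normalized count was 3781 ± 235 in wildtype and 3694 ± 251 in EVX1-Δfs (SD, n = 3), a difference smaller than either SD. The sum was chosen after the values were seen and was not tested. The 95% confidence intervals of Id2 and Id3, which are not adjusted for multiple tests, lay above 0 and that of Id1 lay under it.

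Msx2 (chromosome 13, 53562250 to 53568443, minus strand), a homeodomain factor induced by BMPs in many embryonic tissues, had 447, 589 and 404 normalized counts in wildtype replicates 1, 2 and 3. The same replicates of EVX1-Δfs had 277, 452 and 341, lower in each same-numbered pair although the groups overlapped. The log2 fold change was -0.44 ± 0.16 (SE), and limma gave an adjusted p of 0.112. It was called once EVX1-Δfs replicate 2 was left out (-0.62, limma adjusted p = 0.0437) and in no other fit that left out 1 library.

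Compared per kb of exon, the members covered more than 2 orders of magnitude. In wildtype Id1 was highest at 1917 ± 209 normalized counts per kb, followed by Id3 at 782 ± 99.1, Bmp4 at 556 ± 98.7, Smad6 at 344 ± 60.5 and Msx2 at 195 ± 39.5 (SD, n = 3). Then came Bmp2 at 127 ± 21.5, Id2 at 124 ± 4.65, Bambi at 105 ± 28.8 and Bmp7 at 93.5 ± 14.1 (SD, n = 3), which overlapped with their neighbours in the order. Chrd was lowest, at 8.37 ± 1.17 (SD, n = 3). The libraries of neighbours did not overlap for Id1 and Id3, for Bmp4 and Smad6, for Smad6 and Msx2, for Msx2 and Bmp2, and for Bmp7 and Chrd, and those of Id3 (674 to 870) and Bmp4 (492 to 670) were barely apart. In EVX1-Δfs Id1, Id3, Bmp4 and Smad6 again led, and Id2, at 167 ± 11.6 normalized counts per kb (SD, n = 3), ranked 5, with libraries that overlapped those of Msx2.

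**Figure D3:**
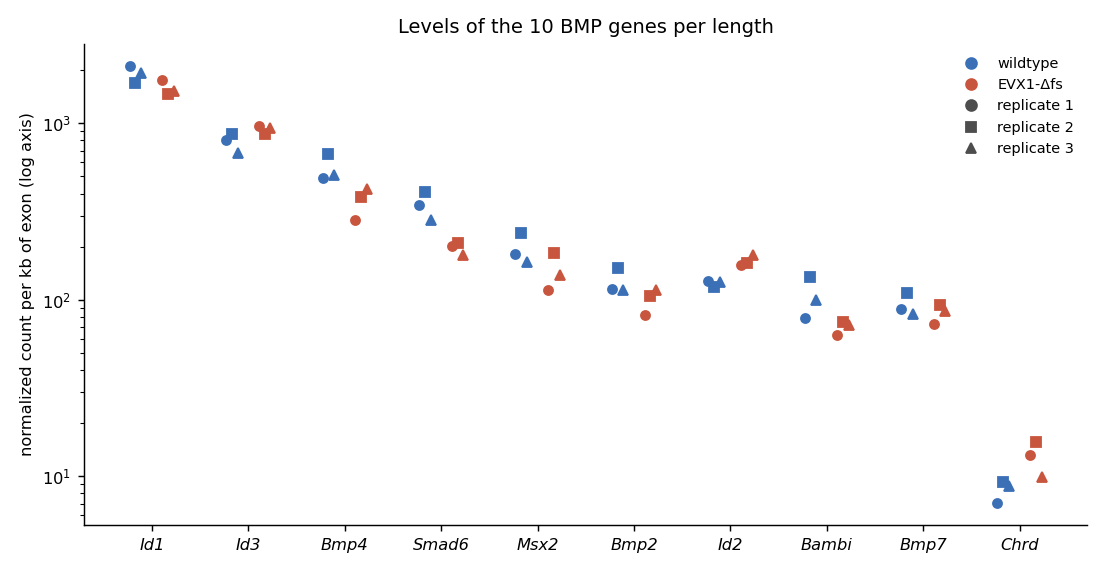
Normalized counts per kb of exon (log axis) of the 10 genes, ordered by their wildtype mean, with 1 symbol per library (blue, wildtype; red, EVX1-Δfs). Id1 is highest and Chrd lowest in every library. Red lies under blue for Bmp4, Smad6 and Bambi and above it for Id2 and Chrd.

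The spread among replicates was shared by several members. Wildtype replicate 2 was the highest wildtype library for 8 of the 10 members, all but Id1 and Id2, where it was the lowest, while over all genes tested it was the highest in 30.9%. Without it, 1 member was called lower, Smad6. Without EVX1-Δfs replicate 1, which was the lowest mutant library for 6 members, Smad6 was again the 1 member called.

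The remaining pathway was described through 67 further genes in 5 lists, of which 54 passed the filter on low values. Limma called 3 higher and 5 lower, and 46 were not called. Over all genes tested 2.08% were called higher and 2.95% lower. The study named Cer1, Hand1 and Tbx3 from these libraries, so the counts are a description. The median log2 fold change of the 54 was -0.02. Of the genes not tested, Bmp15 and Gdf2 had 0 reads in all libraries and the others reached at most 15.8 normalized counts.

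The receptors and the signal-carrying SMADs were present in both genotypes and were mostly not called. Of 12 receptors and co-receptors, Eng, which encodes the co-receptor endoglin of the vascular and blood lineages, was lower, from 613 ± 35.8 to 434 ± 13.1 normalized counts (SD, n = 3), -0.50 on the log2 scale (limma adjusted p = 0.0182). With GC and length trends removed Eng was not called (-0.35, limma adjusted p = 0.111), nor when replicate 1 or 2 of wildtype, or 1 or 3 of EVX1-Δfs, was left out (limma adjusted p = 0.0506, 0.0592, 0.0524 and 0.0836). With 1 of 12 called, the others are given by their intervals. The type I receptor genes Bmpr1a, Acvr1 and Bmpr1b had log2 fold changes of 0.10 (95% confidence interval from -0.17 to 0.37), -0.12 (from -0.43 to 0.19) and 0.04 (from -0.66 to 0.75). The type II receptor genes Bmpr2, Acvr2a and Acvr2b had 0.37 (from -0.01 to 0.76), 0.09 (from -0.24 to 0.41) and -0.18 (from -0.46 to 0.10). Bmpr1a averaged 52.8 and Acvr2b 298 normalized counts per kb in wildtype, while Bmpr1b averaged 4.54.

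Of 11 SMADs and SMAD regulators, Skil, encoding the SMAD co-repressor SnoN, was called higher, from 1184 ± 100.1 to 1569 ± 189 normalized counts (SD, n = 3), 0.40 on the log2 scale (limma adjusted p = 0.0477). That call was lost with the replicate block (limma adjusted p = 0.0730) and with GC and length trends removed (0.10, limma adjusted p = 0.668). It was also lost in all 6 fits that left out 1 library (limma adjusted p from 0.0516 to 0.206). The receptor-regulated Smad1 and Smad5 had log2 fold changes of -0.23 (95% confidence interval from -0.47 to 0.01) and 0.10 (from -0.22 to 0.42), and Smad9, at 7.62 to 21.8 normalized counts per library, had -0.76 (from -1.53 to 0.01). For the shared partner Smad4 and for Smad7, the inhibitory relative of Smad6, the values were 0.12 (from -0.13 to 0.37) and -0.10 (from -0.42 to 0.21). The intervals of Smad6 (-1.06 to -0.53) and Smad7 did not overlap, and the difference between these genes was not tested.

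Among the other ligands, Bmp5 was called higher, from 33.4 ± 17.1 to 65.8 ± 12.5 normalized counts (SD, n = 3), and the log2 fold change was 1.05 ± 0.29 (SE, limma adjusted p = 0.0373). The values were 23.0, 53.1 and 24.0 in wildtype and 54.2, 64.3 and 79.1 in EVX1-Δfs libraries, with wildtype replicate 2 next to the lowest mutant library. It was not called with the replicate block (limma adjusted p = 0.0733), with GC and length trends removed (0.82, limma adjusted p = 0.132), by default DESeq2 (adjusted p = 0.0641), or in 5 of 6 fits that left out 1 library (limma adjusted p from 0.0646 to 0.150). Without wildtype replicate 2 it had a fold change of 1.43 on the log2 scale (limma adjusted p = 0.00438). Bmp8b, whose near-identical neighbour Bmp8a can share its reads, had 34.4 to 56.2 normalized counts and was not called.

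Secreted antagonists other than Chordin were led by Cer1, encoding a Cerberus-like protein that binds BMPs and nodal. It rose from 33.9 ± 14.3 to 377 ± 72.8 normalized counts (SD, n = 3), 3.49 on the log2 scale (limma adjusted p = 2.37e-09), and the study named it from these libraries. Noggin (Nog), another BMP-binding antagonist, went from 110.2 ± 8.40 to 72.5 ± 12.9 normalized counts (SD, n = 3), a difference of -0.61 on the log2 scale that was not called (limma adjusted p = 0.0641). Fst and Twsg1, encoding follistatin and the Chordin partner Twisted gastrulation, had log2 fold changes of 0.21 (95% confidence interval from -0.05 to 0.47) and 0.03 (from -0.22 to 0.29).

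Of 11 other target genes tested, 4 were lower, 0 were higher and 7 were not called, beside 2.95% lower and 2.08% higher of all genes tested. Hand1, a bHLH factor of extraembryonic and lateral mesoderm, fell from 2925 ± 885 to 1185 ± 247 normalized counts (SD, n = 3), -1.28 on the log2 scale (limma adjusted p = 9.36e-05). Gata2, which acts in blood precursors, had a log2 fold change of -0.96 (limma adjusted p = 0.00408). Hey1, a bHLH repressor downstream of Notch as well as BMP signals, had -0.92 (limma adjusted p = 5.51e-04), and the T-box gene Tbx3 had -0.72 (limma adjusted p = 0.00178). These 4 kept their calls in all 6 fits that left out 1 library and in all 16 other alternatives. The study named Hand1 and Tbx3 from these libraries, so their direction is not independent evidence. Msx1, the paralogue of Msx2, had values on the other side and was picked out after they were seen. It had 1933, 2425 and 2114 normalized counts in the wildtype libraries and 2821, 2843 and 2706 in the mutant ones, so the groups did not overlap. Its log2 fold change of 0.38 just missed the threshold (limma adjusted p = 0.0527). Msx1 was called higher in 9 of 16 alternatives, among them DESeq2 (adjusted p = 0.0212) and limma after removal of GC and length trends (0.55, adjusted p = 0.00899, or 0.0314 with the block). It was also called when wildtype replicate 2 was left out (limma adjusted p = 0.0354), and in 0 of the 5 other such fits.

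**Figure D4:**
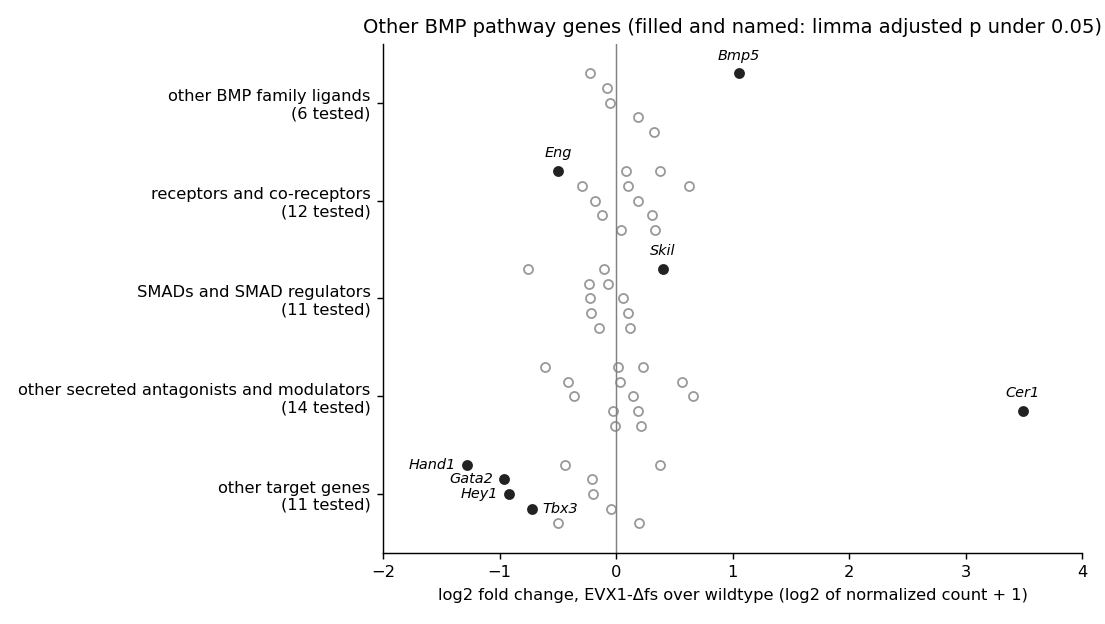
Log2 fold changes (x axis, EVX1-Δfs over wildtype) of 54 other BMP pathway genes, 1 circle per gene, in 5 rows for the lists. Filled and named circles had a limma adjusted p under 0.05, with Cer1 at 3.49 far to the right and the 4 called targets between -1.28 and -0.72. Most receptors and SMADs are open circles around 0.

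Markers of the cells that EBs can hold did not all move in the same direction. Of 6 primitive streak genes, 5 were called lower (3 with the replicate block), beside 2.95% of all genes tested (1.11% with the block). The summed normalized count of the 6 was 12114 to 14726 in the wildtype and 7906 to 9967 in the mutant libraries. T and Eomes had log2 fold changes of -0.58 and -0.50 (limma adjusted p = 0.0122 and 0.0194), and Fgf8 had -0.39 (limma adjusted p = 0.0891). The calls of T and Eomes were both lost with the replicate block (limma adjusted p = 0.0566 and 0.0586). T also lost its call when EVX1-Δfs replicate 1 was left out (limma adjusted p = 0.0748), and Eomes when replicate 1 or 3 of EVX1-Δfs or 3 of wildtype was (limma adjusted p = 0.0665, 0.0786 and 0.0547). Eomes was not called with GC and length trends removed (limma adjusted p = 0.0554). Of 10 genes of posterior and extraembryonic mesoderm, 4 were called lower and 1, Bmp5, higher, beside 2.95% and 2.08% of all genes tested. With the replicate block 3 were lower and 0 higher, beside 1.11% and 0.579% of all genes. With GC and length trends removed 2 were lower and 0 higher, beside 1.15% and 0.827%. The sum of the 10 was 4367 to 5991 in wildtype and 3092 to 3909 in EVX1-Δfs libraries. Kdr and Etv2 had log2 fold changes of -0.91 and -1.10 (limma adjusted p = 2.03e-04 and 4.94e-05), while Ahnak, the second most abundant of the list, had 0.43 (limma adjusted p = 0.169). The study named Mixl1, Mesp1, Eomes, Wnt3, Kdr and Cdx2 of these lists as lower from these libraries. The counts of both lists are therefore not independent evidence. The part of these markers in the lower counts of Bmp4, Bambi and Smad6 was not tested, and in whole EBs fewer cells of a type and less RNA per cell cannot be told apart.

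Of 9 genes of pluripotent cells and epiblast, 1 was called higher and 0 lower, beside 2.08% and 2.95% of all genes tested. With the replicate block 0 were higher (0.579% of all genes), and with GC and length trends removed 2 were (0.827%). The summed counts of the list were 12979.9 to 19337 in wildtype and 14919 to 17805 in EVX1-Δfs libraries. The median log2 fold change of the list was 0.40, with 2 of 9 genes under 0, 6 of 9 higher without overlap between the groups and 5 of 9 at an unadjusted p under 0.05 (limma). Over all genes tested 12.2% were higher without overlap and 23.1% had an unadjusted p under 0.05. The 3 most abundant genes of the list include both of those under 0. Pou5f1, Tdgf1 and Nanog had log2 fold changes of -0.04, -0.05 and 0.40 (limma adjusted p = 0.896, 0.837 and 0.0552). Nanog, which the study named as higher from these libraries, was called higher by default DESeq2 (adjusted p = 0.0293) and edgeR (adjusted p = 0.0434). It was not called with the replicate block (limma adjusted p = 0.0734) or with GC and length trends removed (limma adjusted p = 0.128). Visceral endoderm, a source of BMP2 in the embryo, left little trace: 3 of its 10 markers passed the filter and 0 were called, the list summed to 107 to 143 normalized counts in wildtype and 120 to 151 in EVX1-Δfs, and Afp, Ttr and Apoa1 reached at most 3.81 in any library. The 3 tested, Dab2, Sox7 and Cubn, had log2 fold changes of 0.21, -0.89 and 0.21 (limma adjusted p = 0.642, 0.122 and 0.872). Trophoblast, the lineage of the extraembryonic ectoderm that makes BMP4 in the embryo, had 1 of 6 tested markers called lower, the keratin Krt8 (-0.41, limma adjusted p = 0.0447), which is not specific to it. That call was lost with the replicate block (limma adjusted p = 0.0844), with GC and length trends removed (limma adjusted p = 0.245) and in 5 of 6 fits that left out 1 library, all but the one without wildtype replicate 3 (limma adjusted p from 0.0604 to 0.198). Tfap2c and Hand2 had log2 fold changes of -0.05 and 0.25 (limma adjusted p = 0.871 and 0.517), and the median of the 6 was 0.19. Its defining genes Elf5 and Tpbpa reached at most 2.29 and 0.953 normalized counts, and the list summed to 8731 to 9184 in wildtype and 6187 to 7287 in EVX1-Δfs. Nearly all of that sum was Krt8, and without it the list summed to 422 to 447 in wildtype and 379 to 473 in EVX1-Δfs libraries. Of 3 neurectoderm genes tested, Sox3 was lower (-0.77, limma adjusted p = 0.0373), while Pax6 and Otx2 had log2 fold changes of 1.31 and 0.39 without a call (limma adjusted p = 0.0803 and 0.128). The call of Sox3 was lost with the replicate block (limma adjusted p = 0.0864) and with GC and length trends removed (limma adjusted p = 0.181). It was also lost when replicate 2 or 3 of EVX1-Δfs, or 1 or 3 of wildtype, was left out (limma adjusted p = 0.0577, 0.200, 0.0773 and 0.114). Sox1 reached at most 4.76 normalized counts, and the list summed to 327 to 479 in wildtype and 393 to 470 in EVX1-Δfs.

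The genes whose pattern over the 6 libraries was most like that of Bmp4 were ranked among 10629 genes with a mean of at least 50 normalized counts, by the mean absolute difference of log2 values after each gene was centred on its own mean. The first 5 were Cmklr1, Apcdd1, Prdm6, Tal1 and Pcsk5, with differences of 0.0687 to 0.0872 against a median of 0.331 over all genes ranked. Apcdd1 encodes a membrane-bound WNT inhibitor and was itself called lower (-0.74, limma adjusted p = 0.00903). Apcdd1 lost that call with GC and length trends removed (-0.57, limma adjusted p = 0.0601, or 0.0641 with the block) and when EVX1-Δfs replicate 1 was left out (limma adjusted p = 0.0576). Tal1, a haematopoietic transcription factor, had a log2 fold change of -0.49 (limma adjusted p = 0.0947), and Cmklr1, Prdm6 and Pcsk5 had -0.72, -0.48 and -0.55 without a call. Of the other members, Bmp2, Bambi and Msx2 ranked 46, 49 and 83, Smad6 ranked 429 and Bmp7 ranked 1112, while Id3, Id2 and Chrd ranked 8559, 9950 and 10411. Bmp2 and Msx2, which were not called, thus followed the library-to-library pattern of Bmp4 more closely than the called Smad6 did. The ranking uses the same libraries as the fold changes and is a description.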

How the data were processed

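RNA-seq was performed by the authors on mRNA from day 4 EBs, 3 wildtype and 3 EVX1-Δfs libraries, on an Ion Proton. Per the methods and the submitters' processing notes, TopHat2 followed by TMAP aligned the reads to mm9, and HTSeq counted them at standard settings. Versions and the gene annotation are not given in the sources used here. The deposited values are a signal, read counts divided by 1 factor per library. They were not whole numbers, but 100% came out as whole reads (within 0.001 of a read) once divided by each library's smallest step, and the factors differed from DESeq2 size factors by at most 0.00564%.

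The test was limma 3.58.1 with a mean-variance trend on log2(normalized count + 1), over genes with at least 10 normalized counts in at least 3 libraries. Fold changes (EVX1-Δfs divided by wildtype) are on that scale and so come out too small for low genes. P-values were adjusted by Benjamini-Hochberg over all genes tested. DESeq2 1.42.0 and edgeR 4.0.16 (quasi-likelihood) on the recovered reads, other pseudocounts, filters and scalings, and each library left out in turn were alternatives (R 4.3.3). Fits were tested on simulated data with changes larger than those of the members and without GC trends or effects of day. That test checked the code and does not measure how reliable the calls of the members are. Removal of GC and length trends used splines with 5 degrees of freedom per library, and also removes biology that follows GC content. Symbols were matched to GENCODE vM1 on NCBIM37 (93.9% matched), and levels per kb divide by the union of annotated exons.

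The methods describe starting the cultures to be compared together, with a new day for every replicate. Neither the methods nor the sample labels link replicate numbers to days. Treating libraries of the same number as sharing a day, as the replicate block does, is therefore an assumption. Deviations of same-numbered libraries correlated at 0.111, 0.00933 and -0.101 for replicates 1, 2 and 3. P-values measure the spread between these differentiations of 1 clone and its parent.

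The members, the gene lists and the tests were chosen with earlier results of these data known. Named genes were the 10 members, the called genes of the other lists with a fixed set of receptors, SMADs and antagonists, the 5 genes most like Bmp4, and up to 3 abundant markers per list. Other markers, Msx1, Evx1, Gm15217 and Thpo were added once values were known.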

Additional observations from a re-analysis of the deposited data

How the results depend on the processing

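The counts of calls depended on the setting. All genes called higher (273) and lower (387) became 530 and 625 in edgeR over all genes with any read. With the replicate block they were 76 and 146 in limma, 77 and 207 in DESeq2 and 67 and 126 in edgeR. With GC and length trends removed they were 107 and 149, and 49 and 90 with the block added. Leaving out 1 library gave 80 to 340 higher, the fewest when EVX1-Δfs replicate 3 and the most when wildtype replicate 2 was dropped. It gave 140 to 362 lower, the fewest when replicate 1 and the most when replicate 2 of EVX1-Δfs was dropped. Of the members, 0 were called higher in any setting. The 3 called lower became 1 to 3 when 1 library was left out, with 1 without wildtype replicate 2 or EVX1-Δfs replicate 1, and were 2 to 4 in the other alternatives. Of the other pathway genes, the 3 called higher became 5 in edgeR over all genes and with upper-quartile scaling, and 1 in limma without the low-value filter and with the block in limma, DESeq2 and edgeR. They were 1 to 3 when 1 library was left out (1 without wildtype replicate 3 or any EVX1-Δfs replicate). The 5 called lower were 4 or 5 in those fits. The causes were not tested, but fits without a library have fewer samples. Apart from Bambi, Bmp5 and Skil, the limma block changed no call of the named pathway genes, while the markers T, Eomes, Krt8 and Sox3 lost theirs.

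For the 10 members, 205 of 219 single-gene values kept their direction and side of the threshold, 12 were weaker (8 of Bambi and 4 of Bmp4), 2 of Msx2 were stronger and 0 reversed. Of 495 values for 23 other named genes, 21 reversed, all with an adjusted p of at least 0.535. With GC and length trends removed, with or without the block, Bmpr1a had a log2 fold change of -0.103, Bmpr1b -0.118, Acvr2a -0.182, Acvr2b 0.0388, Smad5 -0.000261, Smad7 0.0331 and Twsg1 -0.0666. Across fits without 1 library the log2 fold change ranged from -0.391 to 0.301 for Bmpr1b, -0.0426 to 0.252 for Acvr2a, -0.0314 to 0.206 for Smad5, -0.189 to 0.0256 for Smad7 and -0.0463 to 0.0825 for Twsg1. In 12 cases (7 genes) no adjusted p was given, and these were not counted. The order of the 10 levels per kb was the same with the longest annotated transcript, and the 5 genes most like Bmp4 were the same with a pseudocount of 16. Chrd, Bmp5, Bmpr1b and Smad9 rest on few reads, which limits what could be detected in them.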
